A study of Mus musculus with 6 samples.

Results

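The comparison described here is that of granulocyte-monocyte progenitors lacking the transcription factor IRF8 with wild-type ones. Granulocyte-monocyte progenitors (GMPs) are bone marrow cells that give rise to neutrophils and monocytes. Its members are the 2 IRF8 KO arrays and the 2 wild-type (WT) arrays among the 6 arrays of the series, chosen by their labelled genotype, with all 45037 probe sets of the Affymetrix Mouse Genome 430 2.0 array. The other 2 arrays are of mice lacking both IRF4 and IRF8 (DKO). WT replicate 1 was a male of 12 weeks and WT replicate 2 a female of 19 weeks. IRF8 KO replicate 1 was a female of 12 weeks and IRF8 KO replicate 2 a male of 22 weeks. The DKO arrays were of a male and a female, both of 16 weeks, and all 6 mice are labelled BL6. The GMPs were sorted as lineage-negative, IL-7 receptor-negative, Sca1-negative, Kit-positive, CD34-positive cells with high Fc gamma receptor II/III. The sources used here name no knockout allele and do not say whether other cells of the animals kept IRF8.

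IRF8 is a DNA-binding protein of the interferon regulatory factor family. It has little affinity for DNA alone and binds with partners, among them the ETS factor PU.1, at composite sites, or with other IRFs at interferon-stimulated response elements. In the bone marrow it is known for favouring monocyte and dendritic cell fates over the neutrophil fate, and mice without it accumulate granulocytes. IRF4 is its closest relative.

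Values were the deposited intensities, from 0.69 to 16563 over the 6 arrays. Differences are on the log2(intensity + 10.5) scale, which understates the change of dim probe sets. Dim probe sets, those not above the 40th percentile on 2 or more arrays, were left out, and 29783 remained. Each of 13267 genes was read from the remaining probe set with the highest mean. A gene or probe set is called separated when both IRF8 KO arrays lay on the same side of both WT arrays, and the gap is the log2 distance between the nearest arrays of the genotypes. Array medians ranged from 34.1 to 45.3 and differed by genotype. Both WT medians, 45.3 and 41.6, were above the IRF8 KO medians of 38.6 and 38.4. Those of the DKO arrays were lower still, at 37.5 and 34.1. Why the medians differed was not tested. The 4 sex-linked check genes followed the labelled sex on all 4 arrays. Of the kept probe sets, 1863 differed by over 2-fold between the WT arrays and 7160 between the IRF8 KO arrays, so the IRF8 KO pair was the more variable.

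The Irf8 transcript itself was still measured. Its brighter probe set read 2588 and 3052 in WT against 3811 and 2602 in IRF8 KO. The groups overlapped, the log2 fold change was 0.16 ± 0.33 (SE, n = 2 per genotype), and the limma adjusted p was 0.871. A second probe set of Irf8 was at 507 and 704 in WT against 1333 and 1131 in IRF8 KO, higher in both IRF8 KO arrays with a gap of 0.68 and a limma adjusted p of 0.341. The sources used here do not place either probe set relative to the deleted part of the gene, and so the genotype is not checked by these levels. Irf4 was dim, at 32.1 and 23.5 in WT against 13.8 and 7.66 in IRF8 KO, with a gap of -0.48, while its other probe set overlapped. Among the 40 measured genes nearest to Irf8, 20 on each side, 10 were separated higher and 5 lower with a median difference of 0.01. Over all genes 23.9% were separated higher and 20.7% lower. Among these neighbours, Crispld2 alone was separated by 2-fold.

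limma called 9 of 29783 probe sets (0.0302%) at an adjusted p below 0.05, 3 higher (0.0101%) and 6 lower (0.0201%) in IRF8 KO, and 4007 had an unadjusted p below 0.05. Nothing in the labels says how the samples of a genotype relate beyond age and sex, so these p-values measure the spread between these samples. The count varied with the arrays used. With 1 array left out, the lone array of that genotype is assumed to vary like the other groups. Without WT replicate 1 none was called, with 2120 at an unadjusted p below 0.05, and without WT replicate 2 none was called, with 1971. Without IRF8 KO replicate 1 the count was 1090 and without IRF8 KO replicate 2 it was 193. In a fit of the 4 arrays alone, Ly86 and Tmem178 were called. Separation was common: 13607 kept probe sets (45.7%) were separated, 5895 higher (19.8%) and 7712 lower (25.9%). Separation by at least 2-fold was not, at 1280 probe sets (4.3%), 432 higher (1.45%) and 848 lower (2.85%). Per gene, 6 of 13267 were called (0.0452%), 3 higher (0.0226%) and 3 lower (0.0226%). The split of separated genes was more even, with 3173 of 13267 separated higher (23.9%), 2752 lower (20.7%), and 494 separated by 2-fold (3.72%), 263 higher (1.98%) and 231 lower (1.74%). The median difference of all genes was 0.04. Centring each array on its median moved that median to 0.18, and then 4273 genes were separated higher and 1896 lower, so that 69.3% of separated genes lay higher, compared with 53.6% before. Of separated probe sets, 43.3% were higher, and 58.4% with centring.

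**Figure D1:**
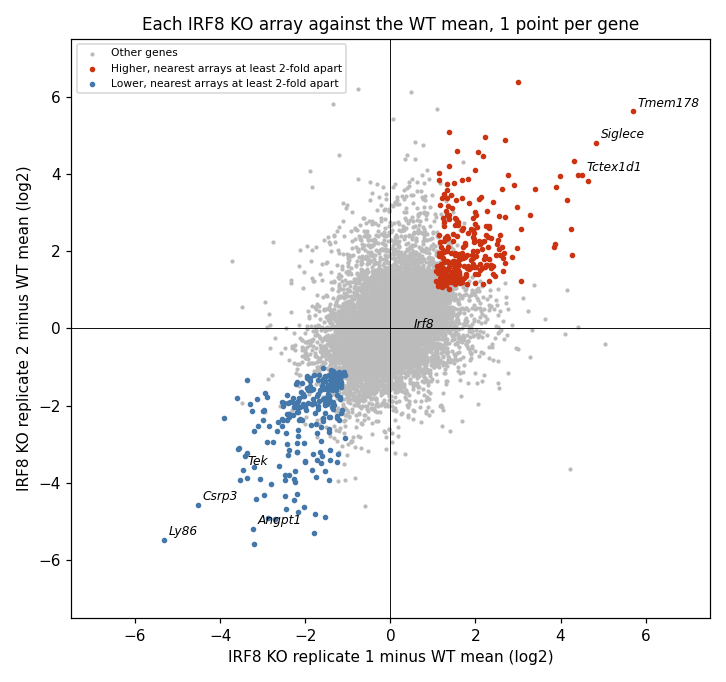
Difference of each IRF8 KO array from the WT mean (log2), replicate 1 on the horizontal and replicate 2 on the vertical axis, with 1 point per gene (13267). Red points are the 263 genes higher and blue points the 231 genes lower with the nearest arrays of the genotypes at least 2-fold apart; Tmem178 and Ly86 lie at the far corners and Irf8 near the centre.

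The sequences shown here are the RefSeq promoter windows (assembly GRCm38.p6, 250 bases before to 50 after the gene's start) of the genes with the largest gaps that contain one of the composite sites named above, and of Ly86, the gene with the widest gap of those that were lower, which contains none. The 3 motifs were searched on both strands: the interferon-stimulated response element (ISRE: GAAA, 2 bases of any kind, GAAA), the ETS-IRF element (EICE: GGAA, 2 bases of any kind, GAAA) and the IRF-ETS element (IECS: GAAA, 2 bases of any kind, GGAA). Matches of different motifs may overlap. Capitals mark the matches.
Cd33, chr7:43533122-43533421, minus strand, an IECS match: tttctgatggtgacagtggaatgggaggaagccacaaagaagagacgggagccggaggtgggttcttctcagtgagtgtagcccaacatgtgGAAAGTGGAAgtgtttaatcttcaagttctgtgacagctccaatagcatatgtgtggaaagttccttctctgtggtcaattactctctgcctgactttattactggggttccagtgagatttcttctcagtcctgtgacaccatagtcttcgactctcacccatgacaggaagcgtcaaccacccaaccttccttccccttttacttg
Mmp8, chr9:7558179-7558478, plus strand, an IECS match: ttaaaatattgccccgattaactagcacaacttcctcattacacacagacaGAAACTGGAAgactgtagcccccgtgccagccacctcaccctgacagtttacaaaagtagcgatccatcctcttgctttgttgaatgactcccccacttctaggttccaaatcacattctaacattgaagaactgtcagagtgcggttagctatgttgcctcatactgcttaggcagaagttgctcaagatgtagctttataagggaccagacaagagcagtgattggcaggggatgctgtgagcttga
Rnase6, chr14:51128814-51129113, plus strand, an IECS match and an ISRE match on the other strand: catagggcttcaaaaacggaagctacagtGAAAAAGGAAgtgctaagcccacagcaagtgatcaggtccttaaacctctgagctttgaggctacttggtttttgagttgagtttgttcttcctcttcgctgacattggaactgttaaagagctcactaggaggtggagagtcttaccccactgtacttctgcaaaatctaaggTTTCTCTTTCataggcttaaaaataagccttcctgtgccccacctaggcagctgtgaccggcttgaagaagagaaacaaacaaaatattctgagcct
Ly86, chr13:37345095-37345394, plus strand, no match: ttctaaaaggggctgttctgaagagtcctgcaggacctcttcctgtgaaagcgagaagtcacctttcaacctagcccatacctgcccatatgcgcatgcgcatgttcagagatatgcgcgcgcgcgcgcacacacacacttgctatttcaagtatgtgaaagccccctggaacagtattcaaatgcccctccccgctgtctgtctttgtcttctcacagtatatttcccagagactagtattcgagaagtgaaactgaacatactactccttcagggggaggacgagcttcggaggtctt

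A match to 1 of the 3 motifs was present in 9.14% of the 10736 genes with a promoter window, in 13.3% of the 211 such genes that were separated higher by 2-fold and in 8.84% of the 181 separated lower by 2-fold. For the genes of the widest gaps it was 2 of 12 higher (Cd33 and Mmp8) and 1 of 11 lower (Rnase6). A match is a description of the letters in the window.

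Tmem178, which codes for a membrane protein, had the widest gap of all genes. It read 30.8 and 49.5 in WT against 2562 and 2439 in IRF8 KO, a gap of 40.8-fold, and rose by 5.66 ± 0.45 (SE) on the log2 scale with a limma adjusted p of 0.00848. Both IRF8 KO arrays lay far above both WT arrays, and the DKO arrays read 1864 and 3758. Tctex1d1, a dynein light chain-like gene, read 111 and 175 in WT against 3374 and 2336 in IRF8 KO, and rose by 4.23 ± 0.43 (SE), adjusted p 0.0262 by limma. Abca9, a lipid transporter, read 5.08 and 7.48 in WT, below the pseudocount, and 407 and 225 in IRF8 KO, and rose by 4.23 ± 0.45 (SE), adjusted p 0.0321 by limma. These 3 probe sets are the 3 called higher.

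The other genes of the widest upward gaps were not called. Siglece and Cd33 code for receptors of myeloid cells that bind sialic acid. Siglece read 30.2 and 101 in WT against 1916 and 1879 in IRF8 KO, and Cd33 37.9 and 45.1 against 541 and 628. In both genes the arrays were well apart, with gaps of 4.08 and 3.31, and limma gave an adjusted p of 0.0509 for each. Ccr1, a chemokine receptor, went from 4.47 and 33.3 to 533 and 388, and its other probe set was higher as well. Mmp8, neutrophil collagenase, read 11.7 and 10.2 in WT against 150 and 273 in IRF8 KO. Scnn1a, a sodium channel subunit, read 22.3 and 54.2 in WT against 908 and 914 in IRF8 KO. Apoc1, an apolipoprotein, read 20.4 and 31.3 in WT against 564 and 541 in IRF8 KO. Lrp1, a scavenger receptor, read 82.6 and 56.4 in WT against 525 and 1230 in IRF8 KO. Slc36a2, Shisa2, Ptgfrn, Arhgef4 and Crispld2 complete the 15, with gaps from 2.55 to 3.02. Not all of these were borne out by their other probe sets: another Arhgef4 set and another Ptgfrn set were lower in IRF8 KO, and one of Crispld2 overlapped.

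**Figure D2:**
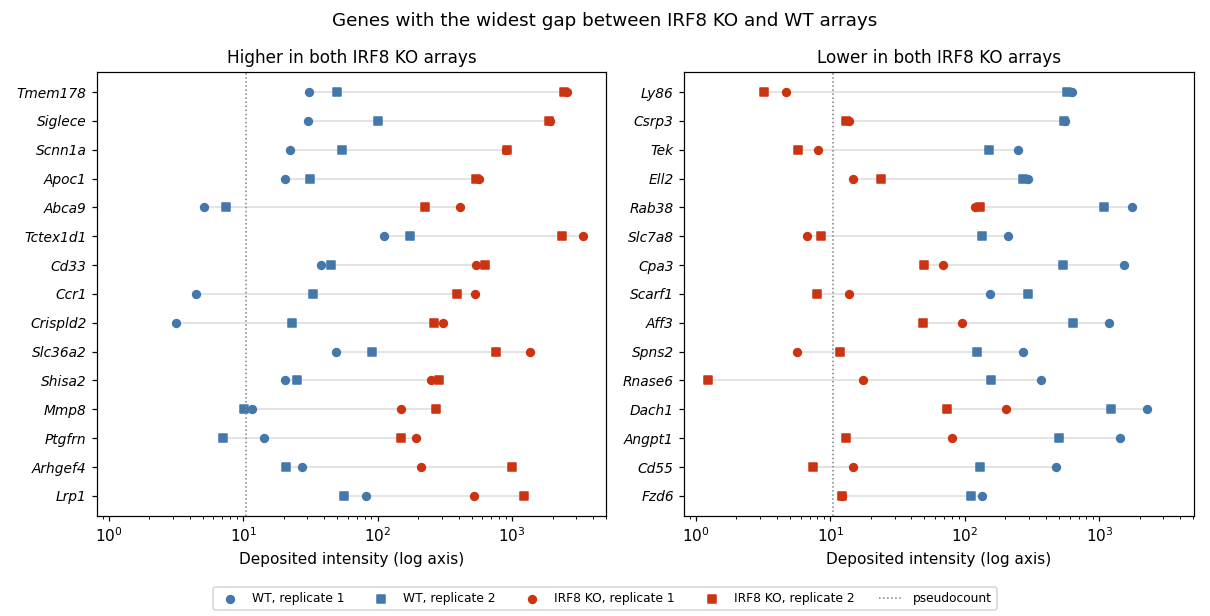
Deposited intensity (log axis) of the 15 genes with the widest gap in each direction, 1 point per array; blue marks WT and red IRF8 KO, circles replicate 1 and squares replicate 2, and the dotted line the pseudocount of 10.5. Ly86 lies at 625 and 575 in WT and at 4.70 and 3.22 in IRF8 KO.

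Ly86 (MD-1), the partner of the Toll-like receptor relative CD180, was the gene with the widest downward gap. It read 625 and 575 in WT against 4.70 and 3.22 in IRF8 KO, below the pseudocount, and fell by 5.40 ± 0.40 (SE), adjusted p 0.00848 by limma. Csrp3, a muscle LIM protein, read 553 and 544 in WT against 13.72 and 13.04 in IRF8 KO, and fell by 4.55 ± 0.38 (SE), adjusted p 0.00917 by limma. Tek, the angiopoietin receptor of blood stem and endothelial cells, read 250 and 152 in WT against 8.10 and 5.75 in IRF8 KO, and fell by 3.56 ± 0.40 (SE), adjusted p 0.0423 by limma. Each of these lay under or near the pseudocount in both IRF8 KO arrays. Of the other called probe sets lower in IRF8 KO, 1 represents Gm6958, a predicted gene. It read 2099 and 1161 in WT against 41.8 and 29.2 in IRF8 KO, and the brighter probe set of Gm6958 was lower too. Another is shared by the alpha globin genes Hba-a1 and Hba-a2. It read 210 and 142 in WT against 9.78 and 6.33 in IRF8 KO, with a limma adjusted p of 0.0496. The last has no symbol, and it read 610 and 490 in WT against 9.09 and 22.1 in IRF8 KO.

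The remaining genes of wide downward gaps included Angpt1, the ligand of TEK, at 1428 and 505 in WT against 80.8 and 13 in IRF8 KO. Rnase6, a secreted antimicrobial ribonuclease, went from 368 and 156 to 17.5 and 1.22. Cd55, which shields cells from complement, read 472 and 131 in WT against 14.7 and 7.38 in IRF8 KO. The lower genes therefore included a receptor and its ligand. Cpa3, the carboxypeptidase of mast cells, read 1526 and 537 in WT against 68.9 and 49.5 in IRF8 KO. Dach1, a transcriptional cofactor, read 2272 and 1225 in WT against 203 and 73.6 in IRF8 KO. Rab38, Slc7a8, Scarf1, Aff3, Spns2, Ell2 and Fzd6 were lower with gaps from -2.41 to -3.04 and none of them was called. In 28 of the 231 genes lower by 2-fold both IRF8 KO arrays read below the pseudocount, and in 16 of the 263 higher ones both WT arrays did, so their size depends on it.

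Genes read by several probe sets allowed the direction to be compared between sets. Of 6271 genes with several kept probe sets, all sets were separated by 2-fold in the same direction for 8 higher genes, among them Ccr1, Ccr2, Cebpd and Itgb5, and for 31 lower genes, among them Angpt1, Meis1, Gata2, Ikzf2, Myct1, Klf4, Cd55 and Dach1. Among 111 such genes whose representative set was 2-fold higher, 17 had another set separated the other way, against 7 of 98 for the lower genes.

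Genes of stem and early progenitor cells lay lower in IRF8 KO. Of 27 measured, 15 were separated lower (55.6%) and 1 higher (3.7%), against 20.7% and 23.9% of all genes. By 2-fold, 12 of the 27 were lower, against 1.74% of all genes. The list was chosen with earlier results of these data known, and it holds Tek and Angpt1, named above for their gaps. The median difference was -1.32 against 0.04 for all genes. With the higher pseudocount the median was -0.73. The difference was -1.26, -1.01, -1.78 and -1.06 in the 4 pairs of 1 IRF8 KO and 1 WT array. Mecom, a stem cell transcription factor, read 129 and 77.4 in WT against 10.18 and 11.01 in IRF8 KO. Meis1, a partner of HOX proteins, read 796 and 347 in WT against 120 and 11.4 in IRF8 KO. Hoxa9, another stem and progenitor regulator, read 1842 and 1566 in WT against 466 and 430.3 in IRF8 KO. Hlf, also a stem cell factor, read 1222 and 666 in WT against 162 and 230.1 in IRF8 KO. Among the list only Tek was called. Kit, part of the sort, read 2170 and 1680 in WT against 1824 and 2328 in IRF8 KO and was 1 of the 11 members that overlapped. Cd34 and Fcgr3 were used in the sort: Cd34 read 1747 and 1401 in WT against 440.3 and 669 in IRF8 KO, and Fcgr3 read 1090 and 1259 in WT against 2618 and 6315 in IRF8 KO. Whether the sorted populations were of the same makeup cannot be told from these arrays, and in bulk RNA fewer cells of a type and less RNA per cell cannot be told apart.

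**Figure D3:**
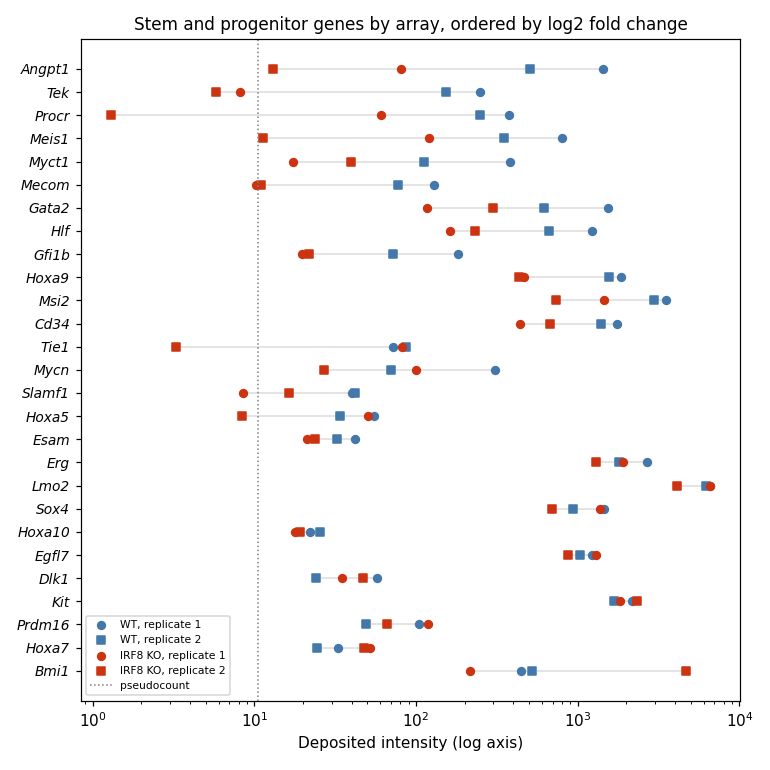
Deposited intensity (log axis) of the 27 measured stem and progenitor genes on each array, ordered by log2 fold change; blue is WT and red IRF8 KO, circles replicate 1 and squares replicate 2. Tek, Angpt1, Procr, Meis1 and Mecom lie lower in both IRF8 KO arrays, and Kit overlaps.

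Genes of eosinophils, basophils and mast cells were lower too. Of 14 measured, 12 were separated lower and none higher, with a median of -1.75, which was -1.02 without IRF8 KO replicate 2 and -0.49 with no filter on dim probe sets. Their summed level ran from 11143 to 16985 in WT and from 4737 to 6683 in IRF8 KO, and no member was below the pseudocount in all 4 arrays. Ms4a2, the beta chain of the high-affinity IgE receptor, read 1584 and 1415 in WT against 319 and 66.7 in IRF8 KO. Epx, eosinophil peroxidase, read 697 and 363 in WT against 139 and 7.74 in IRF8 KO, and Mcpt8, a basophil protease, 1291 and 965 in WT against 260 and 322 in IRF8 KO. Of 21 erythroid genes, 10 were separated lower and none higher, with a median of -1.16, which was -0.70 without IRF8 KO replicate 2 and -0.68 with the stricter filter on dim probe sets. The erythroid sums were 20075 to 23431 in WT against 14316 to 14683 in IRF8 KO. Gata1, the erythroid regulator, read 282 and 61.1 in WT against 13.1 and 1.62 in IRF8 KO. Tfr2, an iron-sensing receptor, read 1047 and 536 in WT against 93.1 and 14.9 in IRF8 KO. Klf1 overlapped between the groups. So did the alpha globin probe set of this list, at 3863 and 4534 in WT against 1571 and 4320 in IRF8 KO, unlike the called one. Megakaryocyte genes had 7 of 19 separated lower (36.8%) and 3 higher (15.8%), against 20.7% and 23.9% of all genes. Their sums overlapped, from 4471 to 11705 in WT and from 4855 to 6693 in IRF8 KO. These lists mark other blood lineages, and the part of such cells in the lower stem and progenitor genes, several of which those lineages share, was not tested.

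In contrast, genes of monocytes and macrophages lay higher. Of 26 measured, 15 were separated higher and 4 lower, with a median of 0.56, which was 0.33 without IRF8 KO replicate 2. Their sums were 27607 to 31379 in WT against 44077 to 45975 in IRF8 KO. Ccr2, the receptor for the monocyte chemoattractant CCL2, read 234 and 457 in WT against 2158 and 2494 in IRF8 KO, with a limma adjusted p of 0.0509. Adgre1 (F4/80) read 132 and 132 in WT against 516 and 840 in IRF8 KO, and Mpeg1, a pore-forming protein of macrophages, 844 and 809 in WT against 2704 and 2951 in IRF8 KO. Csf1r, the receptor for the macrophage growth factor, read 1490 and 915 in WT against 2008 and 3061 in IRF8 KO. Klf4, a factor of monocyte differentiation, went the other way at 280 and 460 in WT against 118 and 17.8 in IRF8 KO. So did Ctss, a lysosomal protease, at 1264 and 1036 in WT against 659 and 462 in IRF8 KO. Dendritic cell genes had 5 of 14 separated higher (35.7%) and 2 lower (14.3%), against 23.9% and 20.7% of all genes. Their sums overlapped, at 5709 to 5731 in WT against 5464 to 7944 in IRF8 KO. Cd74, the invariant chain of class II molecules, read 754 and 365 in WT against 62.0 and 207 in IRF8 KO.

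Several receptor families of the innate immune system also had more members higher than lower. Of all genes 23.9% were separated higher and 20.7% lower. Of 20 Toll-like receptors and co-receptors, 8 were separated higher (40%) and 1, Ly86, lower (5%). Tlr1 and Tlr6, which pair with Tlr2, and Unc93b1, which carries nucleic acid-sensing receptors to endosomes, were each separated higher with gaps of 1.09, 1.11 and 1.59, while Tlr2 itself overlapped. Of 12 chemokine receptors 4 were separated higher (33.3%) and 2 lower (16.7%), against 23.9% and 20.7% of all genes. Counted among these 4 is C5ar1, the receptor of complement fragment C5a. It read 104 and 406 in WT against 993 and 1038 in IRF8 KO. Of 6 Siglecs, 3 were separated higher (50%) and none lower. Of 11 C-type lectin receptors, which bind sugars of microbes and dying cells, 6 were higher (54.5%) and 3 lower (27.3%). Clec4a2 read 130 and 235 in WT against 1040 and 829 in IRF8 KO. Clec4e, a receptor for mycobacterial glycolipid, lay the other way at 131 and 121 in WT against 40.4 and 47.1 in IRF8 KO. Of 29 interleukin and growth factor receptors 15 were higher (51.7%) and 5 lower (17.2%), with Il1rap at 214 and 248 in WT against 657 and 1291 in IRF8 KO. NOD-like receptor and inflammasome genes were not among these families, with 1 of 11 higher (9.09%) and 3 lower (27.3%). The higher one, Nod1, a sensor of bacterial peptidoglycan, read 480.2 and 647 in WT against 1845 and 2431 in IRF8 KO.

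Neutrophil granule genes did not move as 1 group. Azurophil granule proteins, the first made, were separated higher for 4 of 13 (30.8%) and lower for none, against 23.9% and 20.7% of all genes. Lyz1 read 3517 and 4315 in WT against 7487 and 8494 in IRF8 KO, while Mpo, myeloperoxidase, overlapped. Of 25 genes of secondary and tertiary granules and of maturation, 6 were separated higher (24%) and 1 lower (4%). Their share higher was thus near that of all genes, and their share lower was below it. Their median of 0.87 depended on the pair of arrays, at 1.09, -0.22, 1.93 and 1.22 in the 4 pairs, and ranged from 0.37 without IRF8 KO replicate 2 to 1.48 without IRF8 KO replicate 1. Ltf, Camp and Lcn2, antimicrobial proteins of secondary granules, overlapped between the genotypes, while Mmp8 and Chil3 did not. Of 8 NADPH oxidase subunits, which make superoxide in phagocytes, 5 were separated higher (62.5%) and none lower. Cybb read 631 and 1559 in WT against 2851 and 5312 in IRF8 KO.

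**Figure D4:**
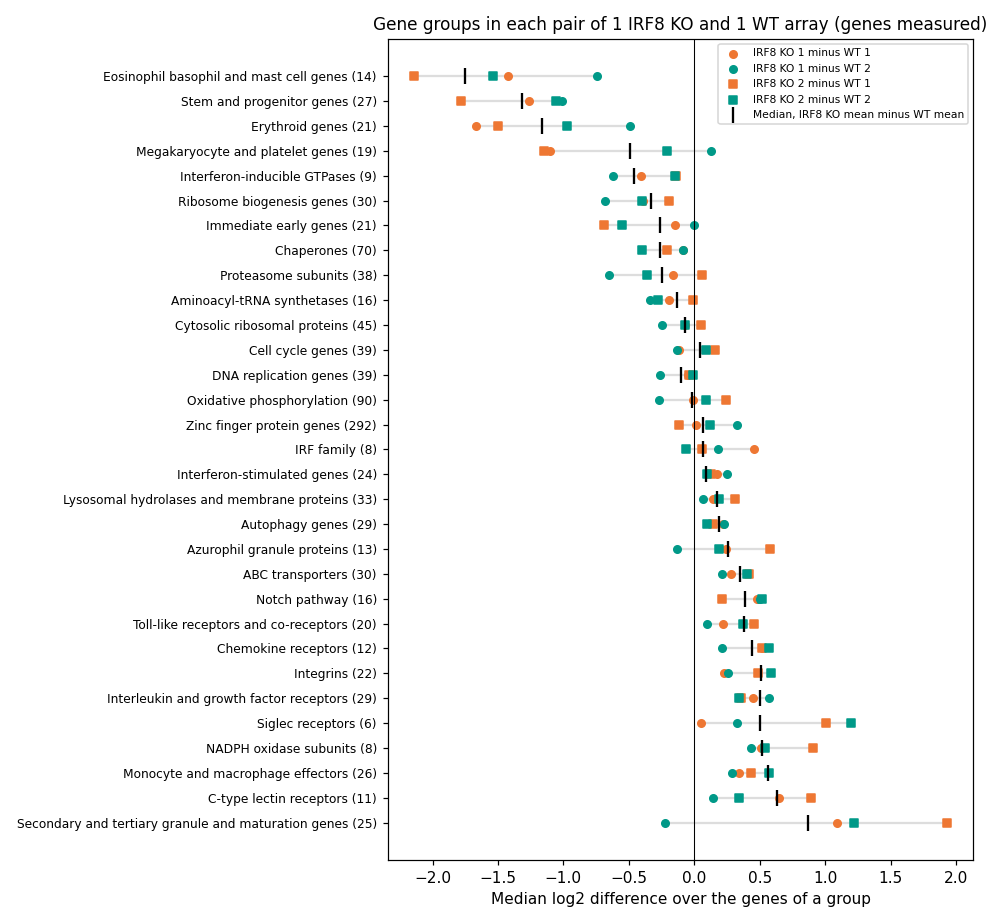
Median log2 difference of the members of 31 of the 87 gene lists in each of the 4 pairs of 1 IRF8 KO and 1 WT array (coloured points), with the median of the difference of means (black tick); numbers in parentheses are genes measured. The stem and progenitor list runs from -1.78 to -1.01 and the secondary and tertiary granule list from -0.22 to 1.93.

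Transcription factors of the myeloid lineage had 7 of 31 higher (22.6%) and 4 lower (12.9%), against 23.9% and 20.7% of all genes. Cebpd, a C/EBP factor, read 582 and 410.5 in WT against 1447 and 3530 in IRF8 KO, and Spi1, which codes for PU.1, 949 and 798 in WT against 1824 and 2797 in IRF8 KO. Ikzf2 and Ikzf3, of the Ikaros family, were lower, with gaps of -1.97 for both. Of 22 reported IRF8 targets 7 were higher and 7 lower (31.8% each), and 9 and 3 after median centring and 7 and 4 with quantile normalization. Interferon-inducible GTPases, which act on intracellular pathogens, were separated lower for 6 of 9 and higher for 1, and 2 of 9 were separated lower after median centring. Of 24 interferon-stimulated genes 5 were higher (20.8%) and 3 lower (12.5%), and 8 and 2 with quantile normalization and 9 and 2 after median centring. Among the higher was Rtp4, at 89.1 and 66.7 in WT against 253 and 548 in IRF8 KO. It was the 1 member higher by 2-fold, and 1 was lower by 2-fold.

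Genes of ribosome biogenesis were lower: 17 of 30 were separated lower and 1 higher, with a median of -0.33, and -0.19 with 10 lower after median centring. Nop2, a nucleolar methyltransferase, read 929 and 814 in WT against 338 and 319 in IRF8 KO. Genes with chaperone symbols, whose products mostly help proteins fold, had 28 of 70 lower and 14 higher with a median of -0.26. That median was -0.07 without IRF8 KO replicate 2, and after centring 15 were lower and 17 higher. Proteasome subunits had 14 of 38 lower and 2 higher, and 6 lower after centring. The median of cytosolic ribosomal proteins, -0.07 with 14 of 45 lower, became 0.07 after centring and 0.01 without WT replicate 2, so its direction depends on the scaling and on 1 array. The direction also depends on the scaling in the medians of aminoacyl-tRNA synthetases and of translation factors. Oxidative phosphorylation genes, with 17 of 90 higher (18.9%) and 15 lower (16.7%), were below the shares of all genes, 23.9% and 20.7%. So were cell cycle genes, with 5 of 39 higher (12.8%) and 7 lower (17.9%), though 11 were lower with quantile normalization.

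**Figure D5:**
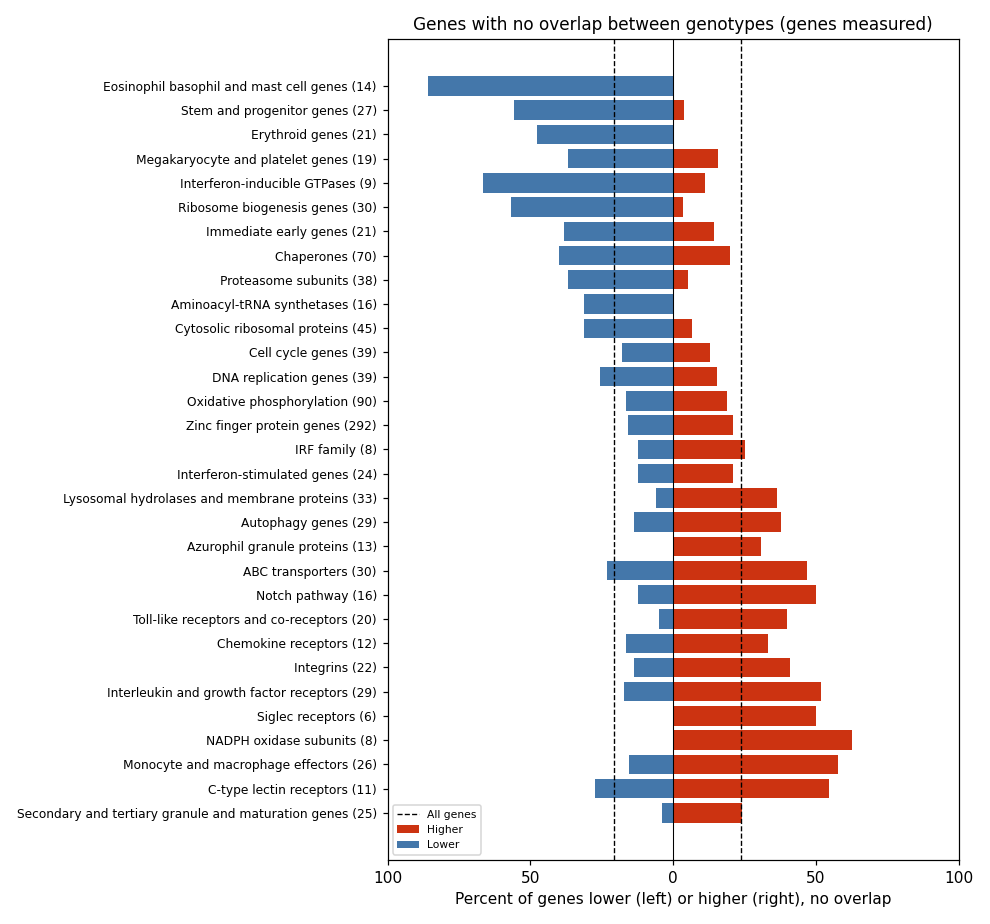
Share of the genes of 31 lists that were higher (right, red) or lower (left, blue) in both IRF8 KO arrays than in both WT arrays, with the shares of all genes (23.9% higher and 20.7% lower) as dashed lines. Eosinophil, basophil and mast cell genes have 85.7% lower and NADPH oxidase subunits 62.5% higher.

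Among all genes 23.9% were separated higher and 20.7% lower. Lysosomal genes were separated higher for 12 of 33 (36.4%) and lower for 2 (6.06%), and autophagy genes for 11 of 29 (37.9%) and 4 (13.8%). Genes of the Notch pathway were higher for 8 of 16 and lower for 2, with Notch1 at 283 and 296 in WT against 1867 and 837 in IRF8 KO. Solute carriers, the largest transporter family, had 56 of 248 higher (22.6%) and 41 lower (16.5%), below the shares of all genes in both directions. RGS proteins, which switch off G protein signalling, had 4 of 13 higher (30.8%) and 3 lower (23.1%). Rgs1, among the lower, read 777 and 386 in WT against 75.2 and 7.59 in IRF8 KO. Over the 87 lists, 29 had all 4 pair medians above 0 and 9 all below 0.

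Paired immunoglobulin-like and CD300 receptors, which tune myeloid activation, were separated higher for 8 of 16 (50%) and lower for 5 (31.2%). Both shares were above those of all genes, 23.9% and 20.7%. Cd300lb, an activating member, read 173 and 130 in WT against 941 and 849 in IRF8 KO, and Btla, an inhibitory one, read 144 and 201 in WT against 44.9 and 34.4 in IRF8 KO. Of 22 genes with integrin symbols, 2 of which code for integrin-binding proteins, 9 were higher (40.9%) and 3 lower (13.6%). Itgb5 had 4 probe sets, all higher by 2-fold, and its brightest read 86.3 and 75.3 in WT against 225 and 1674 in IRF8 KO. Itga1, a collagen-binding integrin, read 72.5 and 82.9 in WT against 19.8 and 8.91 in IRF8 KO.

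Fc receptors went both ways, with 3 of 8 higher and 3 lower (37.5% each), against 23.9% and 20.7% of all genes. The higher ones were Fcgr3, Fcgr4 and their shared signalling chain Fcer1g, at 1581 and 1256 in WT against 2977 and 3637 in IRF8 KO. The lower ones were the IgE receptor chains Fcer1a and Ms4a2, and Fcgr1, at 45.5 and 10.9 in WT against 6.75 and 3.83 in IRF8 KO.

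Lymphoid genes were dim or mixed. Of 12 B-lineage genes 5 were separated higher (41.7%) and 2 lower (16.7%), against 23.9% and 20.7% of all genes. The B-lineage sums ran from 1286 to 1355 in WT and from 2550 to 4876 in IRF8 KO. Vpreb1, part of the surrogate light chain of B-cell precursors, read 187 and 185 in WT against 771 and 1275 in IRF8 KO. Of 14 T and NK cell genes 5 were higher and 5 lower (35.7% each). Lat, an adaptor of the T cell receptor, read 240.0 and 82.0 in WT against 18.6 and 6.61 in IRF8 KO. The T and NK cell sums ran from 1991 to 2025 in WT and from 2072 to 2954 in IRF8 KO. The part of lymphoid cells in these values was not tested.

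Antigen presentation genes were separated in both directions. Of 11 class II genes 1 was higher (9.09%) and 4 lower (36.4%), with 3 higher and 4 lower after median centring. Class I genes had 1 of 14 higher (7.14%) and 4 lower (28.6%), against 23.9% and 20.7% of all genes. Psmb8, an immunoproteasome subunit induced by interferon, read 3046 and 4593 in WT against 1120 and 1739 in IRF8 KO. Tapbp, which loads peptide on class I molecules, read 1725 and 1982 in WT against 2882 and 3568 in IRF8 KO.

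Among signalling inhibitors, MAPK feedback inhibitors were separated lower for 5 of 18 (27.8%) and higher for 1 (5.56%), against 20.7% and 23.9% of all genes. However, quantile normalization gave 5 lower and 3 higher, and median centring 4 lower and 5 higher. Rasa4, a Ras GTPase activator, read 92.7 and 71.7 in WT against 6.21 and 3.65 in IRF8 KO. Socs3, an inhibitor of cytokine signalling, read 53.4 and 65.3 in WT against 18.7 and 3.36 in IRF8 KO. Immediate early genes, which respond to stimulation within minutes, were lower for 8 of 21 (38.1%) and higher for 3 (14.3%). Fosl2, an AP-1 subunit, was among the higher at 645 and 547 in WT against 1850 and 1554 in IRF8 KO, and Klf2 among the lower at 139 and 197 in WT against 54.9 and 25.3 in IRF8 KO. Cxcl2, a neutrophil chemoattractant, read 92.1 and 171 in WT against 15.6 and 17.4 in IRF8 KO.

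Glutathione and redox enzymes had 9 of 26 higher (34.6%) and 4 lower (15.4%), against 23.9% and 20.7% of all genes. Their median was 0.01. Mgst1 and Mgst2, microsomal glutathione transferases, were both higher, and Mgst1 read 833 and 828 in WT against 2344 and 2444 in IRF8 KO. Eicosanoid genes had 5 of 19 higher (26.3%) and 4 lower (21.1%), near the shares of all genes. Ptges, a prostaglandin E synthase, read 20.95 and 18.7 in WT against 107 and 86.2 in IRF8 KO. Of 25 sphingolipid genes 11 were higher (44%) and 6 lower (24%). Cers6, a ceramide synthase, read 882 and 1015 in WT against 2446 and 2205 in IRF8 KO. Asns, which makes asparagine and responds to amino acid shortage, read 421 and 761 in WT against 115 and 134 in IRF8 KO.

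Lists of genes known from other tissues were measured as well. Of 18 muscle genes 4 were higher (22.2%) and 3 lower (16.7%), against 23.9% and 20.7% of all genes, although Csrp3 was among the calls. Neuronal genes had 5 of 14 higher (35.7%) and 3 lower (21.4%), and 7 and 3 with quantile normalization and 8 and 3 after median centring. Camk2a, a kinase of neurons, read 396 and 297 in WT against 77.1 and 22.5 in IRF8 KO.

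Some of the separated genes lie next to each other. In the gene order of 12464 genes, 7 neighbouring pairs were both higher by 2-fold, among them Ccr1 and Ccr2, Tlr1 and Tlr6, and Fcgr4 and Fcgr3, and 7 pairs were both lower, among them Ctla2b and Ctla2a. Near-identical neighbours such as the last pair can share probe signal. Of all genes, 1.98% were higher and 1.74% lower by 2-fold. How many neighbouring pairs these shares alone would give was not computed, so the counts are a description. Genes were also grouped by the letters that begin their symbols, a grouping read after the values were seen. Of 214 such families of at least 8 genes, 12 had at least 50% of members separated higher and 11 at least 50% lower. Over all genes 23.9% were separated higher and 20.7% lower. Small families reach 50% more easily, and how many would do so at these shares was not computed. The first kind included Csf genes with 7 of 8 and Lrp genes with 7 of 9. The second included Utp genes, of the small ribosomal subunit processome, with 7 of 11, Srsf splicing factors with 6 of 9 and Nup nuclear pore genes with 10 of 18.

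The DKO arrays share the lack of IRF8. For the called genes, their values lay on the IRF8 KO side: Ly86 read 11 and 3.52, Csrp3 15.9 and 15.5, Tek 5.77 and 4.12, Tctex1d1 1495 and 2641, and Abca9 384 and 433. The called probe set without a symbol read 240 and 107 in DKO, between its IRF8 KO and WT values. Apoc1 was split between the DKO arrays at 57.7 and 1006. Arhgef4, at 211 and 1001 in IRF8 KO, read 41.0 and 54.8 in DKO.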

How the data were processed

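RNA of sorted GMPs was measured on 6 Affymetrix Mouse Genome 430 2.0 arrays, 1 per mouse. Per the series' design text, the authors normalized the hybridizations and computed intensity values with the PM/MM difference model of dChip 1.3, and those deposited intensity values were used. The normalization method, baseline array and treatment of low values were not given in the sources used here. Of 45037 probe sets, 34945 had 1 gene symbol in the platform annotation, 932 several and 9160 none, and 34741 matched RefSeq genes by gene ID. Values were taken as log2(intensity + 10.5), 10.5 being the 25th percentile of all values. Probe sets above the 40th percentile of their array on at least 2 of 6 arrays were kept. limma 3.58.1 in R 4.3.3 was fitted to all 3 genotypes with a variance trend (residual df 3, prior df 5.84) and Benjamini-Hochberg adjustment, and was tested on simulated data. With 2 arrays per genotype their number limits the precision. The genes named were Irf8, Irf4, the called probe sets with a symbol, and the 15 widest gaps in each direction. List members were named as examples. They are not always those of the widest gaps in their list, and overlapping members are named as such. The comparison's members and the 87 gene lists were chosen with earlier results of these data known. Alternatives covered the pseudocount, filter, scaling, variance model, sex, age, replicate number and each array left out.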

Additional observations from a re-analysis of the deposited data

Results flagged for a closer look

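The pair of male arrays and the pair of female arrays gave medians of opposite sign in 31 of 85 gene lists, leaving aside the sex-linked and housekeeping lists, and values of opposite sign in 5 of 105 named genes. With 1 array per sex and genotype, the differences were not tested. Given here are the 3 lists and 3 genes among them whose male and female values lay at least 1 log2 unit apart. Genes of secondary and tertiary granules and of maturation had a median log2 difference of 1.93 between the male arrays and -0.22 between the female arrays. S100 proteins had 1.08 between the male arrays and -0.14 between the female arrays. Among granule genes, Lcn2 differed by 6.07 between the male arrays and -0.57 between the female arrays, Ltf by 4.01 and -0.89, and Camp by 2.59 and -0.51. Megakaryocyte and platelet genes had -1.15 between the male arrays and 0.13 between the female arrays. Age also differed within each pair, and sex and age cannot be told apart here.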

How the results depend on the processing

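Over 108 named genes and probe sets, 6 of 648 values with an array left out and 3 of 1287 under the other settings changed sign, all in genes whose arrays overlapped. The main count of 9 called probe sets became 21 and 5 with the lower and higher pseudocount, 5 with no filter, 17 with the 60th percentile filter, 30 with quantile normalization, 6 with median centring, 5 without a variance trend and 17 with robust variance. It was 2 with the 4 compared arrays alone, 2 with sex as a block and 136 with age as a covariate. Leaving out an array gave 0 to 1090 calls, with 0 without either WT array. The cause of these changes was not tested. With the replicate block the count was 209. The replicate numbers were not taken to pair the samples, since the deviation correlation of same-numbered arrays was 0.04 for WT and IRF8 KO, 0.19 for WT and DKO and 0.21 for IRF8 KO and DKO, not over 0.1 in every pair. Probe sets separated by 2-fold, 1280, were 617 with the higher pseudocount, 836 with the stricter filter and 2495 to 5001 with an array left out, where fewer arrays make separation easier. All separated probe sets, 13607, were 19233 to 24051 with an array left out.
Those were Kit, at -0.044 with quantile normalization and -0.074 to 0.293 with an array left out, and Mpo, at 0.002 with quantile normalization, 0.086 with median centring and -0.139 to 0.032 with an array left out. Klf1 ran from -0.727 to 0.057, Tlr2 from -0.808 to 0.141 and Irf8 from -0.111 to 0.438 with an array left out. The cause was not tested.
Of 25 lists with a median of at least 0.3 in size, the T and NK cell list alone changed sign, from -0.46 to 0.02 with no filter and 0.06 with the stricter filter. With 2 arrays per genotype, low signal limits the genes near the pseudocount of 10.5 most.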
